A study of Mus musculus with 32 samples.

Results

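The 4 opioid receptor genes were examined in the striatum of 32 mice. These were Oprk1 (kappa receptor), Oprm1 (mu receptor), Oprd1 (delta receptor) and Oprl1 (nociceptin receptor), taken by gene symbol from the 54532 genes of the count table, and all 4 had enough counts to be tested. Each genotype was represented by 8 mice killed at 6 months of age, with 1 library per mouse. Wild-type mice (WT) carried neither mutation. Msh3-/- mice were homozygous for a CRISPR deletion in Msh3, which encodes a DNA mismatch repair protein. The zQ175 mice carried an expanded CAG repeat knocked into the endogenous mouse Htt gene, a model of Huntington's disease in which every cell that uses the Htt promoter expresses the mutant protein. The zQ175:Msh3-/- mice carried both alterations. All 4 groups were littermates on the C57BL/6J background. There were 4 males and 4 females in 3 of the groups, and 5 males with 3 females among the zQ175:Msh3-/- mice. The design allowed the effect of the zQ175 allele to be read with and without MSH3, and the effect of MSH3 loss with and without the zQ175 allele.

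Opioid receptors are G protein-coupled receptors that act through inhibitory G proteins to lower cyclic AMP, open inwardly rectifying potassium channels and close presynaptic calcium channels. In the striatum the enkephalins come mainly from indirect pathway spiny projection neurons and the dynorphins mainly from direct pathway neurons. Enkephalins act on delta and mu receptors, dynorphins on kappa receptors, and nociceptin on the receptor encoded by Oprl1, which binds classical opioids poorly.

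The receptor genes lie on separate chromosomes of GRCm38. Oprk1 (ENSMUSG00000025905) was annotated at chr1:5588466-5606131 on the plus strand and Oprl1 (ENSMUSG00000027584) at chr2:181715016-181720985 on the plus strand. Oprd1 (ENSMUSG00000050511) was at chr4:132110726-132144486 on the minus strand, and Oprm1 (ENSMUSG00000000766) at chr10:6758506-7038198 on the plus strand. Reads over Oprm1 carry an uncertainty that the others do not. Its exons overlap those of Ipcef1 on the opposite strand, which collected 14711 counts over the 32 mice, and the strand setting of the counting was not given in the sources used here. Gm10945 also overlapped the span of Oprm1 and had 0 counts in every mouse.

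RefSeq promoter entries on GRCm38.p6 were at hand for 3 of the 4 receptors. The 250 bases before the start are shown to set a receptor that fell in both zQ175 comparisons (Oprd1) beside the one that rose (Oprl1) and the one that was not called (Oprm1), taking the window that held no annotated exon. That of Oprm1 lies inside the annotated span of the gene, before a start downstream of its first one. Each is printed in the direction of transcription, and capitals mark motif matches on either strand. The motif marked in Oprd1 is GGGCGG, known as a GC box. The motif marked in Oprl1 is TATAAA, known as a TATA box, matched here on the opposite strand as TTTATA. The motif marked in Oprm1 is the sequence CCAAT.
Oprd1, minus strand, chr4:132144487-132144736: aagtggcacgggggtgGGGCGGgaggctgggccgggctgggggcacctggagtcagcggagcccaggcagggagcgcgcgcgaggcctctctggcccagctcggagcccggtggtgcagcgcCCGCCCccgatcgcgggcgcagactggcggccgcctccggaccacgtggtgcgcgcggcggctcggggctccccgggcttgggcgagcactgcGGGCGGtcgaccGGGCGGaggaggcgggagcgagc
Oprl1, plus strand, chr2:181714766-181715015: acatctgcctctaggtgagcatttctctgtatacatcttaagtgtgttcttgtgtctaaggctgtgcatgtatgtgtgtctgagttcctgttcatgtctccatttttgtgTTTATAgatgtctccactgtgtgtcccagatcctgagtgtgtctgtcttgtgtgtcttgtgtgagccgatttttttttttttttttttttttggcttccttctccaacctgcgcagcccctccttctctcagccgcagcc
Oprm1, plus strand, chr10:6788320-6788569: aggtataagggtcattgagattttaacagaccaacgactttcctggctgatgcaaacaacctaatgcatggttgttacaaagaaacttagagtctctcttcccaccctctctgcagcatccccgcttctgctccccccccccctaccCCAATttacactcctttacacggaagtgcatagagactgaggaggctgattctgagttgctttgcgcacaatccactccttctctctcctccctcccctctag

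The windows differed in base composition. That of Oprd1 was 80% G and C with 34 CpG dinucleotides and 4 GC boxes, against 44.4% and 3 CpG for Oprl1 and 50% and 4 CpG for Oprm1. The median over 32817 such windows was 52.4% with 6 CpG. A GC box was present in 32.7% of all windows, a TATA box in 12.4% and a CCAAT box in 33.8%. The letters searched on both strands also included a cyclic AMP response site and an EGR site. Neither TGACG (in 17.7% of all windows) nor GCGNGGGCG (in 4.7%, whose letters can overlap a GC box) occurred in any of the 3 windows shown. These matches describe letters only.

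Library sizes ranged from 12359347 to 25030335 counts per mouse, with a median of 16700247. The spiny neuron markers of the striatum were abundant in all mice. Msh3 lay between 10.4 and 14.2 CPM (counts scaled to library size with TMM factors) in the Msh3-/- and zQ175:Msh3-/- mice and between 22.8 and 27.5 CPM in the others, and these counts cover the whole gene, exons outside the deletion included. In 6 mice (3 WT, 2 Msh3-/- and 1 zQ175) the summed level of 8 cortical projection neuron markers was at most 94.5 CPM, against at least 160 CPM in the other 26. Where leaving out these mice, an alternative chosen after seeing the data, changed a call, the value without them is given.

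Levels between the receptors were compared as TPM, which divide by transcript length. Oprm1 was the least abundant receptor mRNA in 32 of 32 mice, at a median of 2.72 TPM (range 1.81 to 4.06). In WT mice Oprk1 had a median of 13.9 TPM (12 to 16.2), Oprd1 of 16.5 TPM (14.2 to 18.9) and Oprl1 of 16.4 TPM (15.6 to 21.1). By TPM, Oprd1 and Oprl1 were neighbours without a difference beyond their spread in WT mice, since each was the higher in 4 of 8. In the zQ175 mice the median of Oprl1 was 23.5 TPM (18.7 to 25.2), while Oprd1 stood at 12.5 TPM (10.3 to 15.3) and Oprk1 at 11.2 TPM (9.81 to 17.0). In the Msh3-/- mice the medians were 18.8 TPM for Oprl1, 16.7 for Oprk1 and 16.3 for Oprd1, with overlapping ranges, and in the zQ175:Msh3-/- mice 23.6, 13.2 and 13.8 TPM. By TPM, Oprl1 was the most abundant receptor mRNA in all 16 mice carrying the zQ175 allele. Its TPM range did not overlap those of the other receptors in either zQ175 group.

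**Figure D1:**
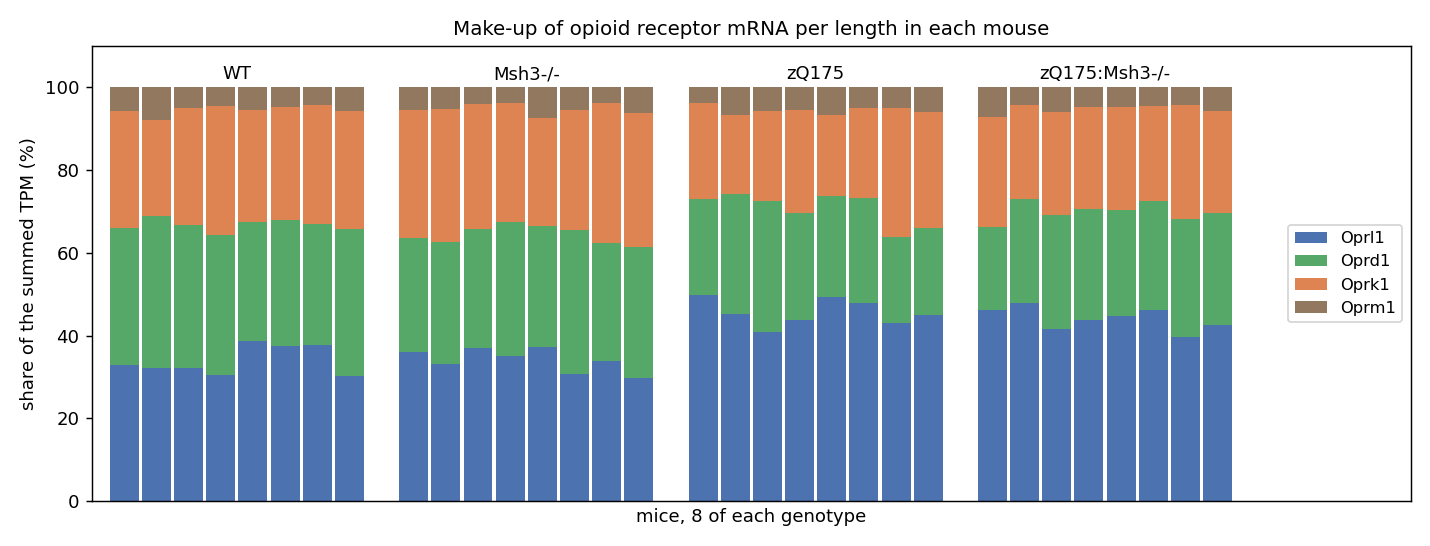
Share of the summed TPM of the 4 receptors (vertical axis, percent) in each mouse, with females before males within each genotype. Oprl1 (blue) took 29.7% to 38.8% in the 16 mice without the zQ175 allele and 39.6% to 49.8% in the 16 mice with it, while Oprm1 (brown) took 3.79% to 7.88% throughout.

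The summed TPM of the 4 receptors had a mean of 51.0 ± 2.52 TPM in WT mice, 54.3 ± 2.26 in Msh3-/- mice, 50.2 ± 2.85 in zQ175 mice and 52.9 ± 3.10 in zQ175:Msh3-/- mice (SD, n = 8 each), and the groups overlapped. Oprl1 made up 34% ± 3.43 of that sum in WT mice and 45.6% ± 3.14 in zQ175 mice. The share of Oprd1 moved from 32.7% ± 3.00 to 25.2% ± 3.76 and that of Oprk1 from 27.9% ± 2.17 to 23.6% ± 4.23 between the same groups (SD, n = 8). The order depends on the length used. With CPM divided by the full exon length of each gene, Oprk1 took 16.5% of the sum and Oprd1 39.5% over the 32 mice, in place of 26.7% and 28.5%, and Oprl1 was the highest in 18 mice and Oprd1 in 14. Among WT mice Oprd1 was then the highest in 7 of 8, where TPM gave 4 of 8. Oprl1 was the highest in all 16 zQ175-carrying mice on both scales. With the full exon length, however, its range overlapped that of Oprd1 in both zQ175 groups. The lowest Oprl1 and highest Oprd1 values were 6.15 and 6.20 CPM per kilobase in zQ175 mice. In zQ175:Msh3-/- mice they were 6.29 and 6.40.

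In the striatum of zQ175 mice, 3 of the 4 receptor genes differed from WT: Oprd1 and Oprk1 were lower and Oprl1 was higher. A gene was called when its adjusted p was under 0.05 in the edgeR quasi-likelihood test over all 16610 genes tested and it moved at least 1.2-fold. Of all genes, 11.6% were called in this comparison, 4.7% as higher and 6.89% as lower. Fewer cells of a type and less receptor RNA per cell cannot be told apart in this tissue RNA.

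Oprd1, which encodes the delta receptor for enkephalin, showed the largest decrease. Its level in WT mice ran from 24.7 CPM through a median of 29.0 to 32.7 CPM, and in zQ175 mice from 17.3 through 21 to 24.9 CPM. Of the 8 zQ175 mice, 7 were below every WT mouse. Oprd1 fell by 0.46 on the log2 scale (SE 0.0676, adjusted p = 1.74e-06, edgeR), which is a decrease to 0.726 of the WT level (95% interval 0.660 to 0.798). With the exact permutation test on log2 CPM, two-sided over 12870 arrangements of the mice, p was 0.000311. This test was run for 20 comparisons of single receptors, and its p-values are given unadjusted.

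Oprk1, the kappa receptor for dynorphin, was also lower. WT mice ranged from 19.6 CPM through a median of 25.2 to 28.4 CPM and zQ175 mice from 16.1 through 18.8 to 28.8 CPM. The groups overlapped, with 5 zQ175 mice below every WT mouse and zQ175 male 3 above all of them. Oprk1 fell by 0.32 on the log2 scale (SE 0.0966, adjusted p = 0.0116, edgeR), with an exact permutation p of 0.0135. Without zQ175 male 3 the decrease was 0.41 on the log2 scale. Over all fits that left out 1 mouse, the log2 difference of Oprk1 ran from -0.41 to -0.29. Among males alone it fell by 0.23 on the log2 scale and was not called (adjusted p = 0.355), and among females by 0.44 (adjusted p = 0.00548), but the difference between these sexes was not tested in this comparison. For the zQ175 effect averaged over both Msh3 genotypes, the difference between males and females was 0.01 (95% interval -0.26 to 0.28 on the log2 scale, adjusted p = 0.997, edgeR).

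Oprl1, the nociceptin receptor, moved the other way. It ranged from 19.3 CPM through a median of 20.5 to 26.0 CPM in WT mice and from 23.1 through 28.5 to 29.8 CPM in zQ175 mice. All 8 zQ175 mice were above the WT median and 6 were above every WT mouse. The increase was 0.34 on the log2 scale (SE 0.0658, adjusted p = 0.000122, edgeR), or 1.27-fold (95% interval 1.16 to 1.39), with an exact permutation p of 0.00124.

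Oprm1, the mu receptor and the main target of morphine, was counted only 26 to 72 times per mouse. Its level ran from 2.25 CPM through 2.66 to 3.55 CPM in WT mice and from 1.80 through 2.70 to 3.28 CPM in zQ175 mice, so the groups lay over each other. The fitted difference was -0.03 (SE 0.144, adjusted p = 0.915, edgeR), with a 95% interval from 0.801 to 1.2 of the WT level. Changes within that interval are compatible with these counts. Ipcef1, whose exons overlap those of Oprm1, ran from 10.5 to 36.4 CPM in WT mice and from 10.4 to 37.7 CPM in zQ175 mice, with a log2 difference of 0.48 (adjusted p = 0.320, edgeR), and its part in the Oprm1 counts was not tested.

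**Figure D2:**
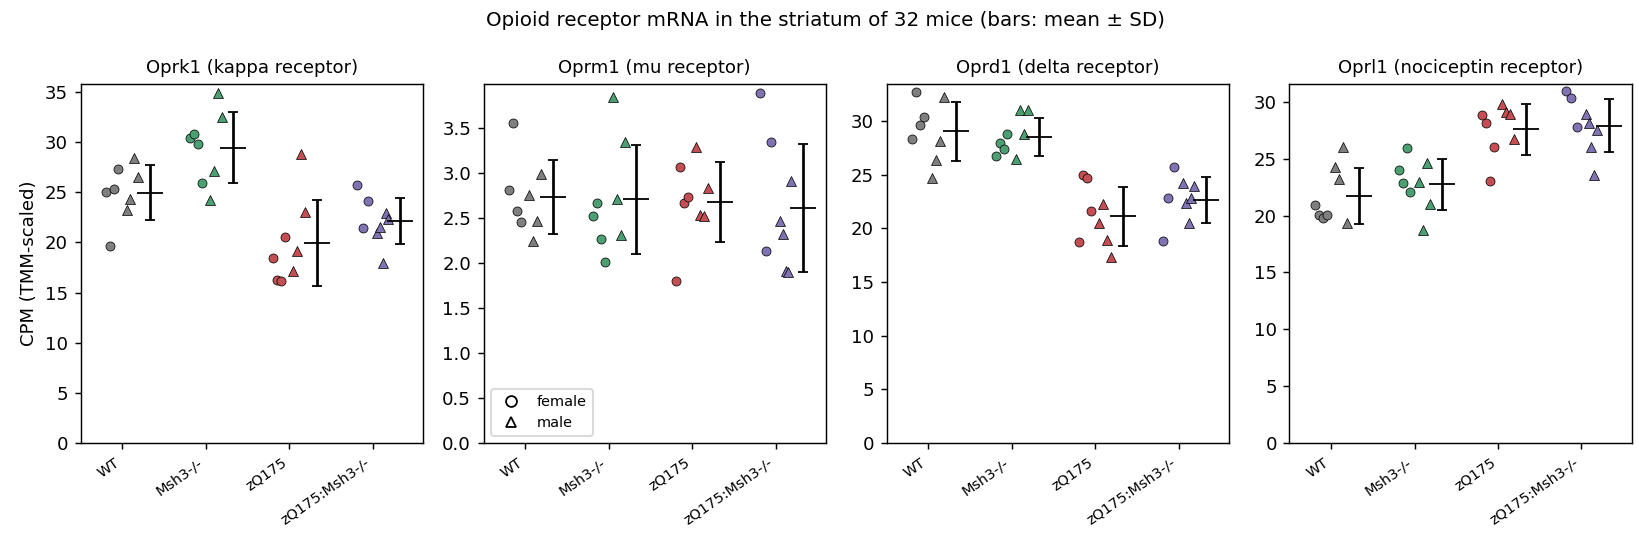
CPM of each receptor (vertical axis, from 0) in every mouse by genotype, with circles for females, triangles for males and bars for the mean ± SD of 8 mice. Oprd1 lies at 17.3 to 25.8 CPM in the mice with the zQ175 allele and at 24.7 to 32.7 CPM in those without it, and Oprl1 at 23.1 to 31.0 against 18.7 to 26.0 CPM.

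The same 3 receptors were called in the mice lacking MSH3, where zQ175:Msh3-/- mice were compared with Msh3-/- mice. Over all genes 10.6% were called there, 4.68% as higher and 5.96% as lower, and for 5.39% the 8 mice of the groups did not overlap. No mouse of this comparison is in that of zQ175 against WT, although the model shares its estimate of the spread.

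Oprd1 ranged from 26.4 CPM through a median of 28.4 to 31.0 CPM in Msh3-/- mice and from 18.8 through 22.8 to 25.8 CPM in zQ175:Msh3-/- mice. These ranges did not overlap. Oprd1 fell by 0.33 on the log2 scale (SE 0.0678, adjusted p = 0.000298, edgeR), and its exact permutation p of 0.000155 was the smallest that 8 against 8 mice allow.

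Oprk1 lay between 24.3 and 34.9 CPM around a median of 30.2 in Msh3-/- mice and between 17.9 and 25.8 CPM around 21.9 in zQ175:Msh3-/- mice. Of the 8 zQ175:Msh3-/- mice, 7 were below every Msh3-/- mouse. The gene fell by 0.42 on the log2 scale (SE 0.0960, adjusted p = 0.00146, edgeR), to 0.750 of the Msh3-/- level (95% interval 0.655 to 0.859).

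Oprl1 went from 18.7 CPM through 22.9 to 25.9 CPM in Msh3-/- mice and from 23.6 through 28.0 to 31.0 CPM in zQ175:Msh3-/- mice, and 7 of the latter were above every Msh3-/- mouse. Its log2 difference was 0.30 (SE 0.0662, adjusted p = 0.000895, edgeR). This value lies close to the 1.2-fold limit. Without the 6 mice low in cortical markers it was 0.25 (adjusted p = 0.00877), with the log2 of those markers in the model 0.26 (adjusted p = 0.00286), and without Msh3-/- male 2 it was 0.26. Each of these passed the adjusted p and lay just under 1.2-fold. Oprm1 ran from 2.00 CPM through 2.59 to 3.84 CPM in Msh3-/- mice and from 1.90 through 2.40 to 3.89 CPM in zQ175:Msh3-/- mice. It did not differ beyond that spread, at -0.06 on the log2 scale (95% interval -0.35 to 0.24, adjusted p = 0.829).

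Averaged over both Msh3 genotypes, mice with the zQ175 allele differed from those without it by -0.40 on the log2 scale for Oprd1 (SE 0.0479, adjusted p = 1.72e-08), by -0.37 for Oprk1 (SE 0.0681, adjusted p = 4.69e-05) and by 0.32 for Oprl1 (SE 0.0467, adjusted p = 8.09e-07), all from the edgeR model in which 13.7% of genes were called. None of these calls changed when the 6 mice low in cortical markers were left out, with values of -0.36, -0.44 and 0.29. The difference between the zQ175 effects with and without MSH3 was called for 0 receptors by edgeR or DESeq2, with 0 at an unadjusted p under 0.05, and for 0.0% of all genes, of which 4.44% had such a p. It was 0.13 for Oprd1 (95% interval -0.07 to 0.32), -0.09 for Oprk1 (-0.37 to 0.19), -0.05 for Oprl1 (-0.24 to 0.14) and -0.03 for Oprm1 (-0.44 to 0.39) on the log2 scale.

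**Figure D3:**
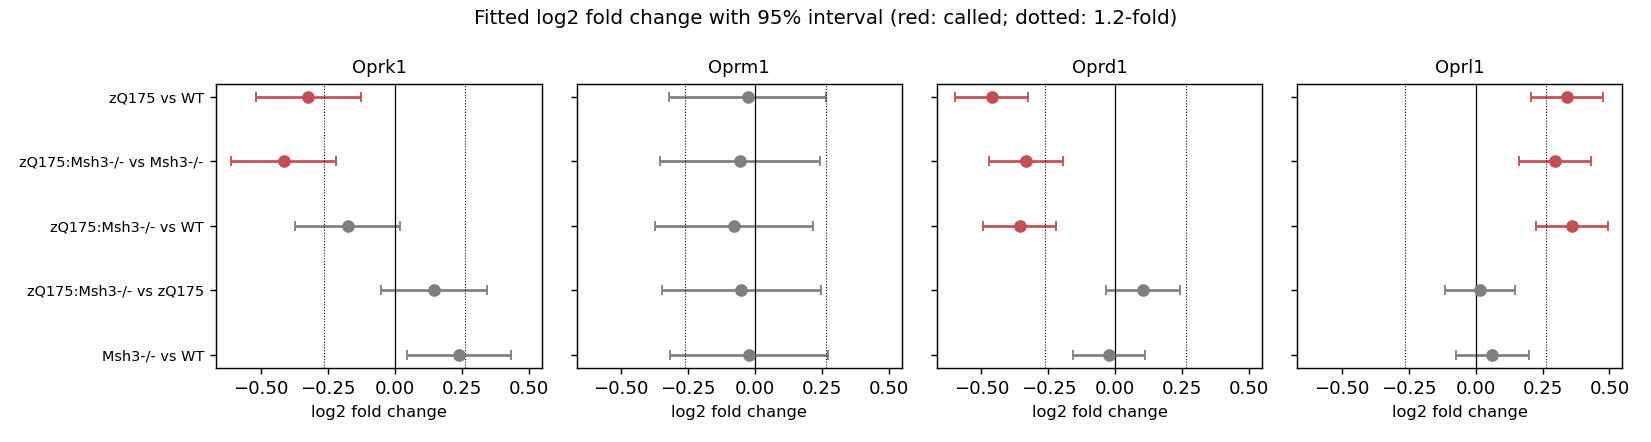
Fitted log2 fold change of each receptor (horizontal axis) in 5 comparisons, with 95% intervals. Red marks the values called, dotted lines the 1.2-fold limit, and the lower pair of comparisons, zQ175:Msh3-/- against zQ175 and Msh3-/- against WT, hold no call.

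Comparing zQ175:Msh3-/- with zQ175 mice, edgeR called 0 of the 4 receptors (0 also at an unadjusted p under 0.05, and 0 with DESeq2), against 0.00602% of all genes called and 3.7% at an unadjusted p under 0.05. The log2 difference was 0.10 for Oprd1 (95% interval -0.04 to 0.24), 0.15 for Oprk1 (-0.05 to 0.35), 0.02 for Oprl1 (-0.12 to 0.15) and -0.05 for Oprm1 (-0.35 to 0.24). These intervals leave room for an increase in Oprk1 of up to 1.27-fold and for a decrease in Oprm1 to 0.786 of the zQ175 level.

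In mice without the zQ175 allele, Oprk1 was the receptor that differed most with Msh3 genotype. Msh3-/- mice had a mean of 29.5 ± 3.52 CPM and WT mice 25.0 ± 2.73 CPM (SD, n = 8), and 5 Msh3-/- mice were above every WT mouse. The log2 difference was 0.24 (SE 0.0949), with an unadjusted p of 0.0171 that did not pass adjustment over all genes (adjusted p = 0.926, edgeR). By the exact permutation test of this receptor alone the unadjusted p was 0.0138, 1 of the 20 run. Of all genes 5.09% had an unadjusted p under 0.05 in this comparison and 0.00602% were called. The log2 differences of the other receptors were 0.06 for Oprl1, -0.02 for Oprd1 and -0.02 for Oprm1, and edgeR and DESeq2 each called 0 of the 4, with 1 (Oprk1) at an unadjusted p under 0.05.

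The zQ175:Msh3-/- mice were also set against WT, which shares the WT mice with the zQ175 comparison and in which 12% of genes were called. Oprd1 fell by 0.36 on the log2 scale (adjusted p = 9.44e-05) and Oprl1 rose by 0.36 (adjusted p = 6.77e-05, both edgeR). Oprk1 had a log2 difference of -0.18 (95% interval -0.37 to 0.02, adjusted p = 0.181) and was not called. Between males and females the log2 differences ran from -0.05 for Oprd1 to 0.06 for Oprk1, with 0 calls by edgeR or DESeq2, 0 unadjusted p under 0.05, while 0.169% of all genes were called and 9.31% had such a p. The difference of the zQ175 effect between the sexes was likewise called for 0 receptors by either tool, with 0 unadjusted p under 0.05, against 0.0% and 5.1% of all genes.

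**Figure D4:**
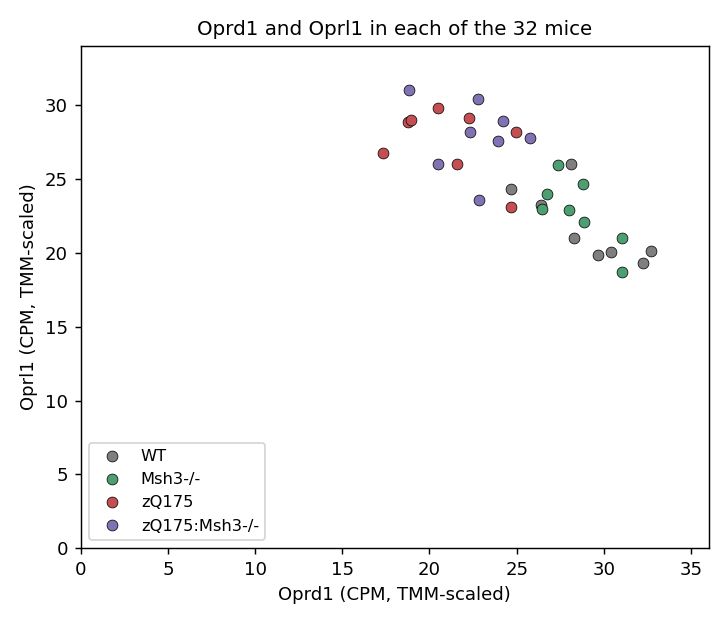
Oprl1 (vertical axis) against Oprd1 (horizontal axis), both in CPM, with 1 point per mouse coloured by genotype. Mice with the zQ175 allele lie toward the upper left and those without it toward the lower right, and within genotypes the correlation was -0.49 over 32 mice.

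Oprd1 and Oprl1 also varied in opposite directions among mice of 1 genotype. After removal of the genotype means, Pearson's r between their log2 CPM was -0.49 over the 32 mice, and -0.38 after removal of genotype and sex means. For the other pairs of receptors r lay between -0.30 (Oprk1 with Oprd1) and 0.24 (Oprk1 with Oprl1). The 32 points share the same libraries and scaling for both genes, and the values are given as a description.

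The genes whose levels followed each receptor most closely within genotypes were read from 11789 genes with a mean of at least 5 CPM. For Oprd1 these were Tbc1d30 (r = 0.850), which encodes a regulator of Rab proteins, Cacna1i (r = 0.821), a T-type calcium channel, and the kinase gene Lmtk2 (r = 0.821). Oprl1 was followed by Vstm2a (r = 0.792) and by Kcnip4 (r = 0.788) and Dpp10 (r = 0.788), both auxiliary subunits of Kv4 potassium channels. For Oprk1 they were Hrk (0.703), which encodes a pro-apoptotic BCL2 family protein, Stum (0.647) and the ribosomal protein gene Rpl36a (0.629). Oprm1 gave Fam84a (0.721), Rgl1 (0.678) and Clip1 (0.653), on counts of 26 to 72. The most negative partner was Rpl36 for Oprd1 (-0.783), Man2a2 for Oprl1 (-0.809), Abtb2 for Oprk1 (-0.719) and Cfl2 for Oprm1 (-0.692). These are the extremes of 11789 values over the same 32 libraries.

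Cell type markers moved with genotype beside the receptors. Over all genes, 11.6% were called in zQ175 against WT, 6.89% as lower, and 10.6% in zQ175:Msh3-/- against Msh3-/-, 5.96% as lower. For 6.63% and 5.39% of single genes the 8 mice of each group did not overlap. All 6 markers shared by both kinds of spiny neuron fell in zQ175 against WT and in zQ175:Msh3-/- against Msh3-/-, and their summed level had a median of 7135 CPM in WT mice (6340 to 7843), 6664 in Msh3-/- mice (6148 to 8166), 4064 in zQ175 mice (3673 to 4718) and 4025 in zQ175:Msh3-/- mice (3750 to 4680). Of the 5 indirect pathway markers measured, 3 fell in each comparison, and of 7 direct pathway markers 3 fell in the first, and 2 fell and 1 rose in the second. The indirect pathway markers summed to a median of 936 CPM in WT and 522 CPM in zQ175 mice, and the direct pathway markers to 560 and 433 CPM. Astrocyte markers, of which 1 of 4 fell (Slc1a2) in zQ175 against WT and 0 of 4 without MSH3, summed to a median of 3152 CPM in WT (2919 to 3236) and 2570 CPM in zQ175 mice (2401 to 2711), without overlap. The sums overlapped between Msh3-/- mice (2701 to 3234 CPM) and zQ175:Msh3-/- mice (2416 to 2885 CPM). Of 3 endothelial markers 1 fell (Flt1) in zQ175 against WT and 0 without MSH3. Their sum had medians of 134 CPM in WT and 112 CPM in zQ175 mice, with the highest zQ175 mouse just under the lowest WT mouse. It overlapped between Msh3-/- mice (101 to 153 CPM) and zQ175:Msh3-/- mice (96.8 to 122 CPM). EdgeR called 0 of 4 oligodendrocyte and 0 of 4 microglial markers in both comparisons. Of 5 matrix markers 2 fell (Id4 and Calb1) in zQ175 against WT and 1 (Id4) without MSH3. Of 6 striosome markers 2 fell (Kremen1 and Bach2) and 1 (Kremen1). Of 5 ventral striatum and islands of Calleja markers, Stard5 rose in both and Wfs1 fell without MSH3. In WT and zQ175 mice the summed medians were 1030 and 893 CPM for matrix, 418 and 382 for striosome, and 271 and 230 for ventral striatum, with overlapping ranges.

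The summed markers were also set beside each receptor within genotypes, over the same 32 libraries. Oprd1 had an r of -0.50 with 5 markers of the ventral striatum and islands of Calleja, 0.48 with the astrocyte markers, 0.42 with the shared spiny neuron markers and -0.41 with the markers for thalamus, hypothalamus and pallidum. Oprl1 had an r of -0.68 with the shared spiny neuron markers, -0.60 with the indirect pathway markers, -0.57 with 6 striosome markers and -0.54 with the direct pathway markers. Its r was 0.59 with 8 GABAergic interneuron markers, 0.52 with those for thalamus, hypothalamus and pallidum and 0.41 with 5 for the claustrum. Oprk1 had an r of 0.62 with 5 matrix markers and 0.45 with the claustrum markers. Oprm1, on counts of 26 to 72, had an r of -0.47 with the oligodendrocyte markers. All others were smaller in size. The part of these cell types in the receptor differences was not tested.

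Interneuron and cortical markers were measured in the same way. Over all genes, 11.6% were called in zQ175 against WT, 10.6% in zQ175:Msh3-/- against Msh3-/- and 13.7% in the averaged zQ175 effect. The 8 GABAergic interneuron markers had medians of 402 CPM in WT (351 to 454) and 389 CPM in zQ175 mice (352 to 398). EdgeR called 0 of them in zQ175 against WT and 1 (Th, lower) in zQ175:Msh3-/- against Msh3-/-. Cholinergic interneuron markers, of which 2 of 6 fell in zQ175 against WT and 5 of 6 in zQ175:Msh3-/- against Msh3-/-, had medians of 110 and 92.8 CPM. The cortical markers had medians of 223 CPM in WT (66.9 to 336), 244 in Msh3-/- (67.3 to 499), 302 in zQ175 (64.8 to 429) and 363 in zQ175:Msh3-/- mice (160 to 721). All 8 were higher in zQ175 against WT, by 0.41 to 0.82 on the log2 scale, and 1 was called (Cux2). In zQ175:Msh3-/- against Msh3-/- the differences ran from 0.33 to 0.84 with 0 calls. In the averaged zQ175 effect 3 were called as higher (Neurod2, Fezf2 and Cux2). Within genotypes the summed cortical markers had an r of 0.36 with Oprl1 and at most 0.17 in size with the other receptors. Of the 8 markers for thalamus, hypothalamus and pallidum, Lhx9, Oxt and Hcrt stayed under 1 CPM in every mouse, as did Car3 of the claustrum markers.

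Beyond the receptors, 49 genes of opioid signalling were listed and all were tested. In zQ175 against WT, 4 rose and 8 fell, where 11.6% of all genes were called, with a median log2 difference of 0.04 beside 0.01 over all genes. In zQ175:Msh3-/- against Msh3-/-, 3 rose and 8 fell, where 10.6% of all genes were called (median 0.03 beside 0.01). The 11 genes called in the second comparison were all among the 12 called in the first. In zQ175:Msh3-/- against zQ175 and in Msh3-/- against WT, edgeR and DESeq2 each called 0 of the 49, with 2 at an unadjusted p under 0.05 in each, where 3.7% and 5.09% of all genes had such a p.

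**Figure D5:**
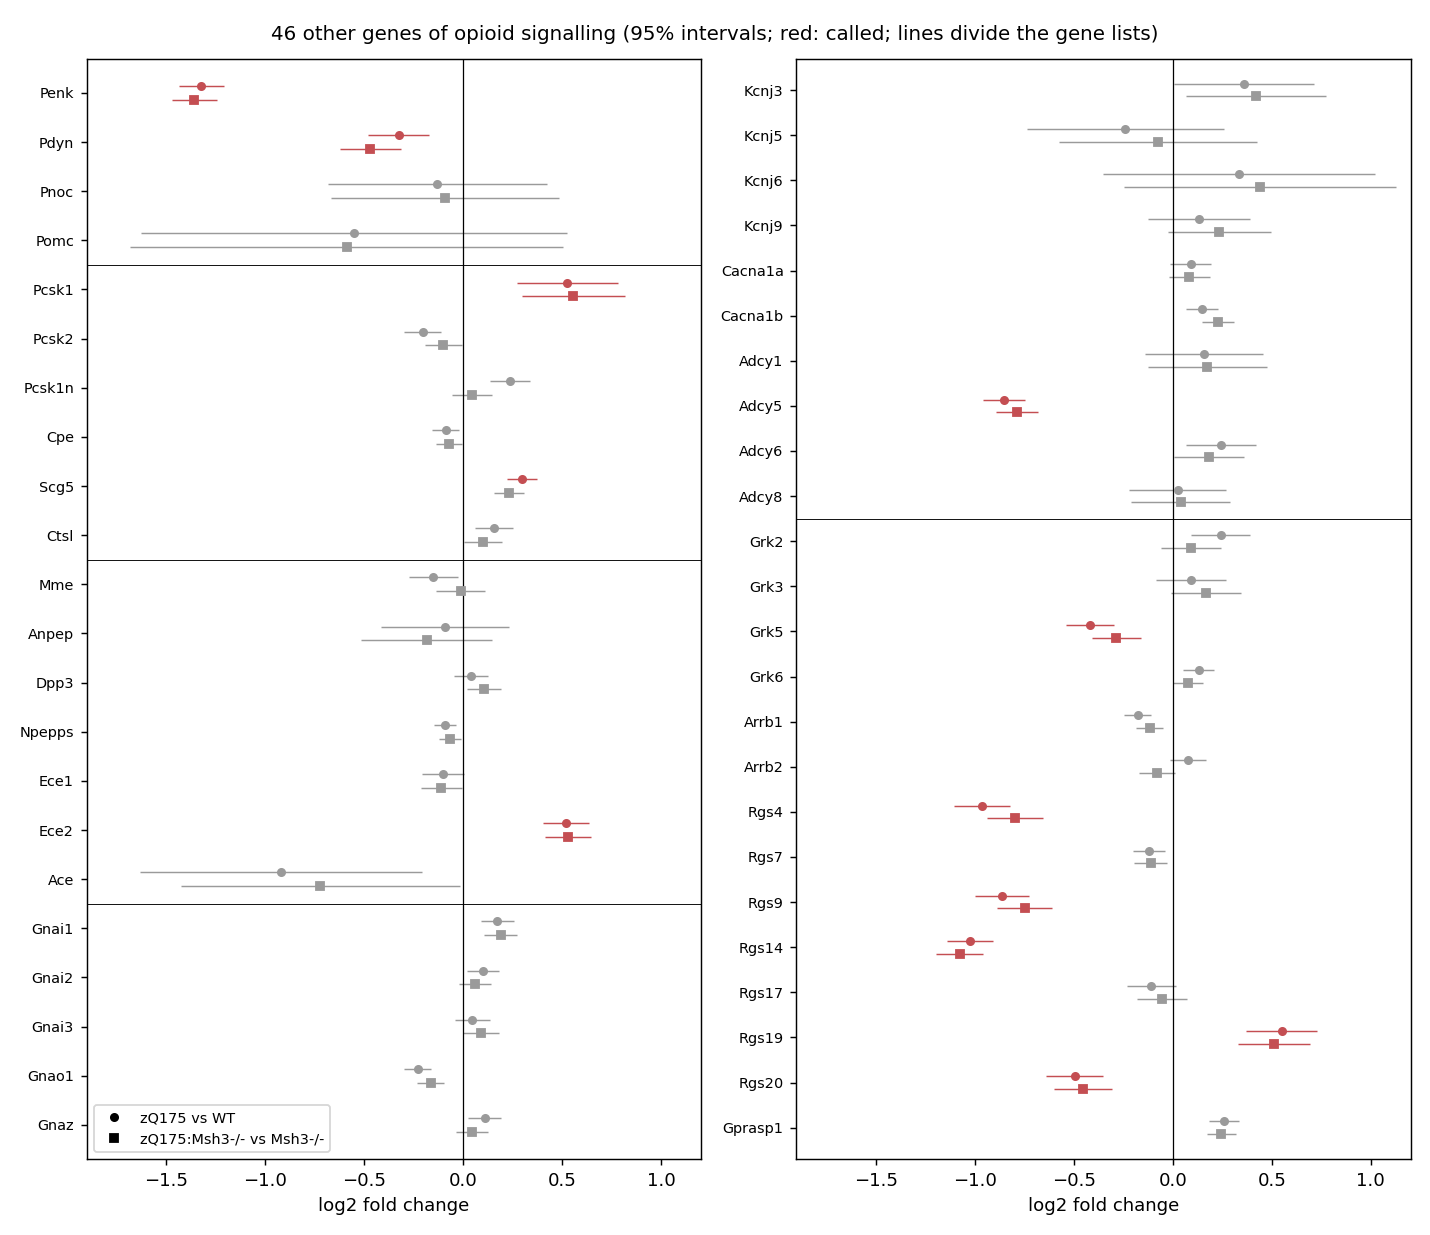
Log2 fold changes with 95% intervals of 46 of the 49 other genes of opioid signalling (horizontal axis), in zQ175 against WT (circles) and zQ175:Msh3-/- against Msh3-/- (squares), with lines between the gene lists. Red marks the called values, the lowest of which are those of Penk at -1.32 and -1.36.

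Among the 4 opioid peptide precursors, 2 fell in zQ175 against WT and without MSH3, where 6.89% and 5.96% of all genes were called as lower. Penk, the precursor of the enkephalins, had between 994 and 1248 CPM in WT mice (median 1146) and between 388 and 507 CPM in zQ175 mice (median 454), with no overlap, which held for 6.63% of all genes. Pdyn, the precursor of the dynorphins, ran from 99.8 through 122 to 133 CPM in WT mice and from 84.1 through 98.7 to 108 CPM in zQ175 mice, where some mice of the groups overlapped. The log2 difference was -1.32 for Penk (SE 0.0559, adjusted p = 2.03e-19) and -0.32 for Pdyn (SE 0.0752, adjusted p = 0.00137), and without MSH3 the differences were -1.36 and -0.47 (adjusted p = 1.94e-19 and 1.77e-05, edgeR).

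The precursors of nociceptin and of beta-endorphin were at low levels in these libraries. Pnoc had a median of 1.69 CPM in WT mice (0.456 to 3.6) and 1.53 CPM in zQ175 mice (0.909 to 3.46), a log2 difference of -0.13 (95% interval -0.68 to 0.42, adjusted p = 0.778). The ligand gene of Oprl1 showed no called change beside the increase of its receptor, and within genotypes r between Pnoc and Oprl1 was 0.62. Pomc had medians of 1.73 and 2.35 CPM and a log2 difference of -0.55 (95% interval -1.62 to 0.52), with 1 WT mouse at 17.2 CPM.

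Of the 6 genes for processing of peptide precursors, Pcsk1 and Scg5 rose in zQ175 mice, where 4.7% of all genes were called as higher. Pcsk1 encodes a convertase that cleaves prohormones and went from a median of 16.1 CPM (13.0 to 19.9) to 24.3 CPM (14.0 to 30.2), with a log2 difference of 0.53 (adjusted p = 0.00177) and of 0.56 without MSH3 (adjusted p = 0.00144). Scg5, whose product is a chaperone of the convertase PCSK2, went from 123 CPM (118 to 135) to 152 CPM (139 to 170), a log2 difference of 0.30 (adjusted p = 1.14e-07). Without MSH3 its difference was 0.23 (adjusted p = 1.33e-05), under the 1.2-fold limit.

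Of the 7 peptide-degrading enzymes, 1 rose and 0 fell in zQ175 against WT and in zQ175:Msh3-/- against Msh3-/-, and 1 rose and 1 fell in the zQ175 effect averaged over both Msh3 genotypes. Of all genes, 11.6%, 10.6% and 13.7% were called in these comparisons, in the same order. Ece2, a neuronal metalloprotease, went from 26.5 CPM (24.9 to 30.7) in WT to 38.7 CPM (34 to 43.0) in zQ175 mice without overlap, which held for 6.63% of all genes. It rose by 0.52 on the log2 scale (SE 0.0573, adjusted p = 5.52e-09), and by 0.53 without MSH3 (adjusted p = 5.65e-09, edgeR). Mme, which encodes the enkephalin-degrading enzyme neprilysin, had log2 differences of -0.15 and -0.01 (adjusted p = 0.0625 and 0.906) and was not called. Ace, which encodes angiotensin-converting enzyme, had the log2 differences of largest size in this list, -0.92 in zQ175 against WT (adjusted p = 0.0503) and -0.72 without MSH3 (adjusted p = 0.133), which were not called. Its median was 48.2 CPM in WT (36.3 to 80.4) and 22.3 CPM in zQ175 mice (18.3 to 71.2), where the ranges overlapped. In the averaged zQ175 effect it fell by 0.82 on the log2 scale (SE 0.245, adjusted p = 0.00824, edgeR).

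Of the 5 inhibitory G protein alpha subunits, edgeR and DESeq2 called 0 at 1.2-fold, with 4 at an unadjusted p under 0.05 in zQ175 against WT and 3 without MSH3, where 36.5% and 34.9% of all genes had such a p. Gnao1 had the lowest log2 difference, -0.23 (adjusted p = 1.74e-06), and Gnai1 the highest, 0.17 (adjusted p = 0.00145). Over all genes, 11.6% were called in zQ175 against WT and 10.6% without MSH3. Among 10 effectors, which include potassium channel, calcium channel and adenylyl cyclase genes, Adcy5 fell in both of these comparisons. It encodes the main adenylyl cyclase of the striatum and had a median of 1878 CPM in WT (1647 to 2082) and 1038 CPM in zQ175 mice (931 to 1156). Its log2 difference was -0.85 (SE 0.0527, adjusted p = 4.68e-15), and -0.79 without MSH3 (adjusted p = 4.83e-14). Calls in the other direction came from other comparisons. In zQ175:Msh3-/- against WT, edgeR called 3 of the 10 effectors and DESeq2 called 2, where edgeR called 12% of all genes. Kcnj3, which encodes a subunit of G protein-gated potassium channels, rose in the averaged zQ175 effect by 0.39 on the log2 scale (adjusted p = 0.0114) and in zQ175:Msh3-/- against WT by 0.46 (adjusted p = 0.046), while its differences of 0.36 and 0.42 in the 2 zQ175 comparisons at 1 Msh3 genotype were not called (adjusted p = 0.127 and 0.0771). Adcy6, another adenylyl cyclase gene, rose by 0.28 in zQ175:Msh3-/- against WT (adjusted p = 0.014), and was at 0.24 in zQ175 against WT (adjusted p = 0.0333), under the 1.2-fold limit, and at 0.18 without MSH3 (adjusted p = 0.128, edgeR).

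The list of receptor kinases, arrestins and RGS proteins held 6 of the called genes among its 14 members. Over all genes, 11.6% were called in zQ175 against WT and 10.6% without MSH3. RGS proteins shorten G protein signals, and Rgs4, Rgs9, Rgs14 and Rgs20 fell while Rgs19 rose. The log2 differences in zQ175 against WT were -0.96 for Rgs4, -0.86 for Rgs9, -1.02 for Rgs14 and -0.49 for Rgs20 (adjusted p = 6.49e-13, 5.22e-12, 5.14e-16 and 1.74e-06), and without MSH3 they were -0.80, -0.75, -1.08 and -0.45. Rgs9 is also one of the shared spiny neuron markers above. The receptor kinase gene Grk5 fell by 0.42 and 0.28 on the log2 scale in the same comparisons (adjusted p = 1.02e-06 and 0.000501). The arrestin genes stayed under 1.2-fold in zQ175 against WT, with log2 differences of -0.18 for Arrb1 (adjusted p = 0.000108) and 0.08 for Arrb2 (adjusted p = 0.202).

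Rgs19 was the member of that list that rose, as Oprl1 did among the receptors. Its level went from a median of 7.56 CPM (5.82 to 8.81) in WT mice to 11 CPM (9.62 to 11.7) in zQ175 mice, without overlap, which held for 6.63% of all genes. Without MSH3 it went from 7.85 CPM (5.88 to 9.53) in Msh3-/- mice to 11.2 CPM (8.59 to 13.0) in zQ175:Msh3-/- mice, where the ranges overlapped. The log2 differences were 0.55 (SE 0.0880, adjusted p = 7.78e-06) and 0.51 (SE 0.0887, adjusted p = 3.36e-05, edgeR). Rgs19 lies on the minus strand at chr2:181688419-181693977. Its start is 21039 bases from that of Oprl1, pointing away from it, with 1 annotated gene, Lkaaear1, between them.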

How the data were processed

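Striatal polyA RNA of 32 mice was sequenced as paired-end reads. The authors deposited raw counts per gene and a table labelled FPKM whose columns each sum to 1000000, so it was read as TPM. The submitters' processing notes name GRCm38.p6, and the aligner, counter, strand setting and annotation were not given in the sources used here. Symbols and positions came from GENCODE M21 (54495 of 54532 identifiers matched). Counts were scaled by TMM and fitted in 1 model of 4 genotypes with edgeR 4.0.16 (filterByExpr, robust quasi-likelihood test, Benjamini-Hochberg over 16610 genes), in R 4.3.3. Called means adjusted p under 0.05 and at least 1.2-fold. The study's own tool, DESeq2 (1.42.0, independent filtering off), and limma 3.58.1 on log2(TPM + 0.1) were alternatives, as were other scalings, no filter, sex in the model, each sex alone, only the 2 groups compared, a replicate block and leaving out each mouse. Single receptors were tested by exact permutation of log2 CPM. The functions were tested on simulated data. P-values weigh a group difference against the spread between these mice, which edgeR estimated with information shared across genes. Members, gene lists and tests were chosen with earlier results of these data known. Named genes were the receptors, their overlapping neighbours, listed genes called in zQ175 against WT or zQ175:Msh3-/- against Msh3-/-, and the 3 highest and 1 lowest correlations per receptor. Other listed genes, and Rgs19's position, were named after their values were seen. The result of 1 short gene list, whose members are counted in the totals, is not reported here.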

Additional observations from a re-analysis of the deposited data

Results flagged for a closer look

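Within each genotype, the highest and lowest of the 8 mice was compared with the others by Dixon's gap ratio (the gap to the nearest mouse over the whole range) for the receptors, the listed genes, Ipcef1, the summed markers and the total counts. The ratio passed its 95% limit in 22 of 280 sets, where chance gives about 14. No explanation was tested.

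Among the receptors there was 1 such value: Oprm1 in zQ175 female 1, at 1.80 CPM against 2.52 to 3.28 CPM in the other zQ175 mice (ratio 0.561). In zQ175 male 4 the cortical markers were low, at 64.8 CPM against 270 to 429 CPM (0.754), as were the GABAergic interneuron markers, at 352 against 382 to 398 CPM (0.667), Ipcef1, which overlaps Oprm1, at 10.4 against 26.5 to 37.7 CPM (0.727), Adcy6 (0.569) and Grk2 (0.597). WT male 2 had 17.2 CPM of Pomc against 1.22 to 1.97 CPM (0.821). Ace was high in zQ175 male 3, at 71.2 against 18.3 to 26.7 CPM (0.721), and in zQ175:Msh3-/- male 4, at 111 against 18.7 to 32.8 CPM (0.686).

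Mice that were highest in their genotype were zQ175:Msh3-/- male 1 for Cpe (0.570), zQ175:Msh3-/- male 4 for Ctsl (0.548), Msh3-/- male 1 for Ece2 (0.552) and for the cholinergic interneuron markers (0.582), and Msh3-/- male 2 for Rgs9 (0.708). Mice that were lowest were zQ175:Msh3-/- female 3 for Pnoc, the nociceptin precursor (0.656), zQ175 female 3 for Gnai1 (0.633), WT female 4 for Kcnj5 (0.572), Msh3-/- male 2 for Adcy8 (0.618), zQ175 male 3 for Arrb2 (0.609), zQ175 female 1 for Rgs19 (0.574), Msh3-/- female 4 for Rgs20 (0.549) and WT female 1 for the oligodendrocyte markers (0.543).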

How the results depend on the processing

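Over 1251 recomputed values, 1186 were counted as unchanged, and all 50 that changed sign belong to differences that were not called. For a single difference, unchanged meant the same direction and the same call. A count of called receptors could shift from 3 to 2, and a correlation could move within an interval around its main value, and still count as unchanged. Values are log2 differences unless stated. Same-numbered mice of the groups did not deviate together (correlations of -0.17 to 0.22), so the numbers do not pair the mice, and with the replicate block the counts of called receptors stayed at 3 in zQ175 against WT and 3 in zQ175:Msh3-/- against Msh3-/-. Over 13 alternatives in zQ175 against WT, Oprd1 ranged from -0.49 to -0.38 and Oprl1 from 0.30 to 0.40, with the call kept in 13 of 13 for each, and Oprk1 from -0.44 to -0.23, with the call kept in 11.

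With limma on log2(TPM + 1), Oprk1 in zQ175 against WT (-0.26) and Oprd1 in zQ175:Msh3-/- against Msh3-/- (-0.25) fell under 1.2-fold. Within 1 sex there were fewer mice. Males gave no call for Oprk1 in zQ175 against WT (-0.23) or Oprl1 in zQ175:Msh3-/- against WT (0.21), which left 1 called receptor there in place of 2. Females gave none for Oprk1 (-0.30) or Oprd1 (-0.30) in zQ175:Msh3-/- against Msh3-/-, which left 1 in place of 3. Without the 6 mice low in cortical markers, or with those markers in the model, both chosen after seeing the data, Oprl1 there was 0.25 and 0.26. By permutation of log2(TPM + 0.1), Oprk1 in zQ175:Msh3-/- against WT was -0.11 (p = 0.129, exact permutation test) in place of p = 0.0485. CPM per kilobase gave receptor shares of 16.5% for Oprk1, 2.09% for Oprm1 and 39.5% for Oprd1.

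The sign of Oprm1, at 26 to 72 counts, turned most often. In zQ175 against WT it was 0.02 with limma at either pseudocount or without the filter (0.023, 0.018 and 0.023) and by permutation of TPM (0.023), and 0.10 in males. In zQ175:Msh3-/- against Msh3-/- it was 0.38 in females and 0.039 without the 6 mice, in zQ175:Msh3-/- against WT 0.10 in females, and in zQ175:Msh3-/- against zQ175 0.26 in females. In Msh3-/- against WT it was 0.01 (0.012, 0.011 and 0.012) with limma, 0.012 by permutation of TPM and 0.22 in males. Its mean zQ175 effect was 0.0039, 0.0033 and 0.0039 with limma, 0.11 in females and 0.0049 without the 6 mice, and its interaction with Msh3 was 0.55 in females and 0.069 without the 6 mice.

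Other uncalled differences that turned were, in zQ175:Msh3-/- against zQ175, Oprk1 (-0.051) and Oprl1 (-0.093) in males and Oprl1 (-0.0022) with cortical markers in the model. In Msh3-/- against WT they were Oprd1 (0.079) and Oprl1 (-0.10) in males, and in the interaction with Msh3 Oprk1 in females (0.14) and Oprl1 in males (0.0052). The causes were not tested.

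Leaving out each mouse in turn changed 1 call, Oprl1 in zQ175:Msh3-/- against Msh3-/- (0.26 to 0.33). Oprm1 ranged from -0.078 to 0.038 in zQ175 against WT, -0.15 to 0.027 in zQ175:Msh3-/- against Msh3-/-, -0.15 to 0.0051 in zQ175:Msh3-/- against zQ175, -0.10 to 0.043 in Msh3-/- against WT, -0.090 to 0.0010 for the mean zQ175 effect and -0.12 to 0.052 for the interaction. Oprl1 in zQ175:Msh3-/- against zQ175 ranged from -0.016 to 0.048, and Oprd1 in Msh3-/- against WT from -0.057 to 0.0024.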
